A study of Mus musculus with 8 samples.

Results

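Broad regions that were open in every ATAC-seq library of mouse cerebral cortex were examined. In ATAC-seq the Tn5 transposase cuts and tags accessible DNA, and a peak is a stretch where tagged fragments exceed the local background. Overlapping peaks of the 8 libraries (1 bp or more, 21 chromosomes) were joined into regions. The members were chosen by 2 measured values, the presence of a peak in all 8 libraries and a merged width of at least 2000 bp. There were 96 such regions among 71712 regions open in all 8 libraries (0.134%) and 197916 merged regions in all. The study compared 4 mice with bilateral carotid artery stenosis (BCAS) with 4 sham-operated mice, all male C57BL/6 mice aged 14 weeks, with 1 library per mouse. In BCAS mice the right carotid artery had been fitted with a coil of 0.16 mm and the left with one of 0.18 mm 3 weeks earlier, which narrows the vessels and chronically lowers blood flow to the brain. The sample labels give the tissue as the right cortex, and a table of the study describes cortex without naming a side, so the side was not settled here. The cortex was not sorted by cell type, so more cells with an open region and a more open region in each cell cannot be told apart.

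Most stretches of open chromatin are short gaps between nucleosomes, held open by transcription factors at a promoter or an enhancer. Wide open stretches are known from promoters in CpG islands, where unmethylated CpG-rich DNA is kept free of stable nucleosomes by factors such as SP1 and by the transcription machinery, often around several start sites. In neurons and other differentiated cells such promoters often belong to genes that control development and cell identity. Repeated DNA can also give wide peaks, since reads from many copies align to the few copies that the reference genome holds.

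The deposited lists held 119565 to 160720 peaks on the 21 chromosomes in BCAS libraries and 107391 to 144988 in sham libraries, which covered 48.9 to 66.3 Mb and 44.5 to 60.8 Mb of DNA. The lists hold no read counts. Reads per library are listed in the study's quality table and were not used here. None of the 18 listed genes that define other tissues had a region open in all 8 libraries at its transcription start site (TSS). Among them were Alb of liver and Ins2 of pancreas. Such a region was present at 30 of 36 synaptic genes, 15 of 18 astrocyte genes, 13 of 24 microglia genes and 6 of 20 endothelial and mural genes. Over all protein-coding genes it was present at 12774 of 21851 (58.5%).

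The merged width was what chose the regions, and it is given as a description. It ranged between 2000 and 5741 bp with a median of 2151.5 bp, against a median of 604 bp in the 71616 narrower regions open in all 8 libraries. The narrowest members lay at the TSS of Zfpm2 (2000 bp), a cofactor of GATA factors, Vldlr (2002 bp), a reelin receptor, and Ppp1r16b (2003 bp). Just below the limit were regions at Brwd1 (1992 bp), Sptbn1 (1991 bp) and Ddx3x (1989 bp). Only 4 members reached 3000 bp, whereas 1086 regions open in all 8 libraries reached 1500 bp.

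The broad regions were mainly CpG-rich promoters. By the GENCODE annotation, the TSS of a protein-coding gene lay inside 76 of the 96 (79.2%, Wilson 95% interval 70 to 86.1%), against 12349 of the narrower regions (17.2%). Among the narrower regions, however, those of at least 1500 but under 2000 bp had a TSS inside in 772 of 990 (78%), a share like that of the members. A wider region also has more room for a TSS, so the contrast with all narrower regions depends partly on the width that the rule used. The median GC content of the broad regions was 62.9%, against 49.0% in narrower regions, and their median ratio of observed to expected CpG was 0.728, against 0.264. Among regions with a TSS inside, however, these measures were alike: the median GC content was 63.6% in the 76 broad ones and 61.5% in the 12349 narrower ones, and the median CpG ratio was 0.742 in both. These are descriptions of fixed sets of regions and carry no test.

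**Figure D1:**
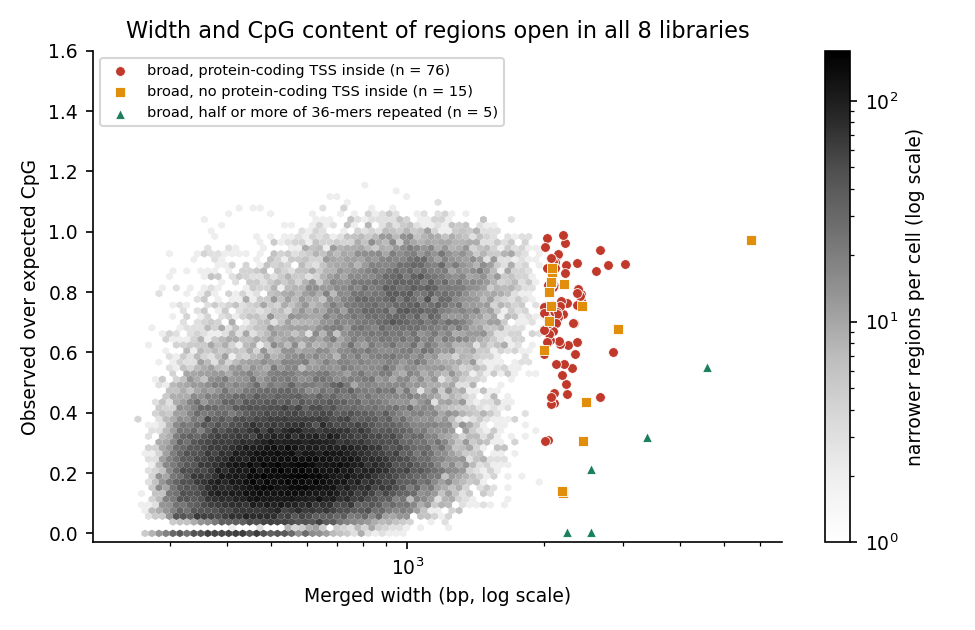
Merged width (x axis, bp, log scale) and ratio of observed to expected CpG (y axis) of all regions open in all 8 libraries. Grey cells count the 71616 narrower regions, and symbols mark the broad regions: 76 with a protein-coding TSS inside, 15 without one, and 5 in which 50% or more of the 36-mers occur more than once in the genome. Most broad promoters sit at a CpG ratio above 0.6, whereas 4 of the 5 repeated regions sit below 0.4.

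The widest members included repeated, ribosomal and mitochondrial-like DNA beside promoters. Of the 15 widest broad regions 9 had no protein-coding TSS inside, against 11 of the other 81. The widest of all, chr17:39843048-39848788 (5741 bp), holds Rn18s-rs5, which RefSeq lists as a sequence related to 18S ribosomal RNA. It had a GC content of 64.9% and a CpG ratio of 0.971. Its covered length was 5741, 5725, 5509 and 5715 bp in BCAS libraries 1 to 4, against 5700, 5725, 5711 and 5717 bp in sham libraries 1 to 4. Peaks of each library thus covered it nearly from end to end. The coefficient of variation over the 8 libraries was 1.32%, against a median of 14% over the 96 members. The next, chr1:24611568-24616152 (4585 bp), covers pseudogenes of mitochondrial genes, among them Gm10222 and Gm10925, and 98.6% of its 36-mers also occur in the mitochondrial genome. Its covered length was 4579, 4585, 4578 and 4578 bp in BCAS libraries and 4573, 4582, 4579 and 4579 bp in sham libraries. The libraries differed by at most 12 bp here, and it had the smallest coefficient of variation of all members (0.0751%). These sequences, shown with CpG in capitals, are 180 bp from the middle of each region on the plus strand of GRCm38 (chr17:39845828-39846007 and chr1:24613770-24613949), and they are shown because they were the most evenly covered of the 96.
Rn18s-rs5 locus: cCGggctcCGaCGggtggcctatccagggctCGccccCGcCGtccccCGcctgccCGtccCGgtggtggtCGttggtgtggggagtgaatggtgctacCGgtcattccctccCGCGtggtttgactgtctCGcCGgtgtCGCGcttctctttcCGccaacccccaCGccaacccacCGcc
mitochondrial-like block on chromosome 1: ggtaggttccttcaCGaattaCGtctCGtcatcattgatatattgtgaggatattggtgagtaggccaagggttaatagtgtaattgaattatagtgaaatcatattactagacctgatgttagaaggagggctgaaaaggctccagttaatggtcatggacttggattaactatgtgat
The stretch from the Rn18s-rs5 locus held 20 CpG and the mitochondrial-like one 3.

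Although these regions were the widest, their summits were the weakest. The fold enrichment over the local background at the highest summit, as the authors' peak caller gave it, was 2.01 to 2.24 at the Rn18s-rs5 locus and 2.28 to 2.41 at the mitochondrial-like block. Ranked among all peaks of the same library, these summits had mean percentiles of 0.0124 and 0.0386, the lowest of the 96, and never exceeded 0.0635. Over the 96 members the median of the mean percentile was 66.1, and over the narrower regions it was 67.9. Among promoters the highest mean fold was that of Arhgap26, a GTPase-activating protein, with 14.5, 14.8, 14.3 and 16.3 in BCAS libraries and 14.8, 14.7, 15.8 and 14.3 in sham libraries.

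Another 4 members were tandem repeats. The region in an intron of Tsnax (chr8:125020355-125023739, 3385 bp) repeated with a period of 42 bp, and 66.0% of its bases equalled the base one period downstream. The region in an intron of Stam2 (chr2:52696418-52698959, 2542 bp) repeated with a period of 54 bp, with 95.7% of bases equal. Yet the repeat mask of the genome marks none of it. In RefSeq it lies within the span of the noncoding RNA gene Gm46741. The regions chr17:13550629-13553178 (2550 bp) and chr13:74528463-74530714 (2252 bp) repeat a unit of 5 bp, with 68.9% and 73.8% of bases equal, and have CpG ratios of 0.00529 and 0.00624. These were the only members with more than 50% of bases equal at any shift of 3 to 500 bp, and the next member, Arid1b, reached 42.1%. Of the 990 distinct 36-mers of the chromosome 17 region 89 (8.99%) also occurred in the chromosome 13 region on either strand, which is 8.22% of the 1083 there. The following 180 bp come from the middle of each region, plus strand of GRCm38, with the first period in capitals, and show what the peaks were called on (chr8:125021957-125022136, chr2:52697599-52697778, chr17:13551814-13551993 and chr13:74529499-74529678).
Tsnax intron: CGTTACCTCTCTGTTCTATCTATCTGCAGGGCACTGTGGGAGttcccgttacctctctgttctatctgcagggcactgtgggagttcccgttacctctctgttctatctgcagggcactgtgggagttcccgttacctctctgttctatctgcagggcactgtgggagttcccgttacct
Stam2 intron: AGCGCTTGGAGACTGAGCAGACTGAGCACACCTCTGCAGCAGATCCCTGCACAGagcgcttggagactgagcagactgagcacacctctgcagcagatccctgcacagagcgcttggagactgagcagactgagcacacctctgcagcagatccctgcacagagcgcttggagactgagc
chromosome 17 repeat: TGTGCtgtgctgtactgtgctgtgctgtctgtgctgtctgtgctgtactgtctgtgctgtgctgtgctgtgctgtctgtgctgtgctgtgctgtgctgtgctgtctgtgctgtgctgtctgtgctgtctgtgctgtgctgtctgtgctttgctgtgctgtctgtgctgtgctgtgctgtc
chromosome 13 repeat: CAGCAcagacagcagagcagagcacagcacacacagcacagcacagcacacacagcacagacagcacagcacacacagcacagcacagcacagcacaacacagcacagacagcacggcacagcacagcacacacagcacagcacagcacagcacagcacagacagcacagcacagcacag
With the mitochondrial-like block these made 5 of 96 members in which 50% or more of the 36-mers occurred more than once in the genome, against 14 of 1024 narrower regions taken at even spacing (1.37%) and 17 of the 990 regions of at least 1500 but under 2000 bp (1.72%). At the Rn18s-rs5 locus the share was 12.9%.

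Unlike the locus on chromosome 17, the tandem repeats varied between libraries. The Tsnax intron was covered over 3115, 2547, 2335 and 1931 bp in BCAS libraries and 2042, 2826, 2760 and 2567 bp in sham libraries. The groups overlapped widely. The Stam2 intron was covered over 2167, 2027, 2159 and 1682 bp in BCAS libraries and 1199, 1633, 1935 and 2019 bp in sham libraries. Sham library 1 was the lowest of the 8 there, and it was also the lowest at both 5 bp repeats, with 1633 bp on chromosome 17 and 1192 bp on chromosome 13.

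**Figure D2:**
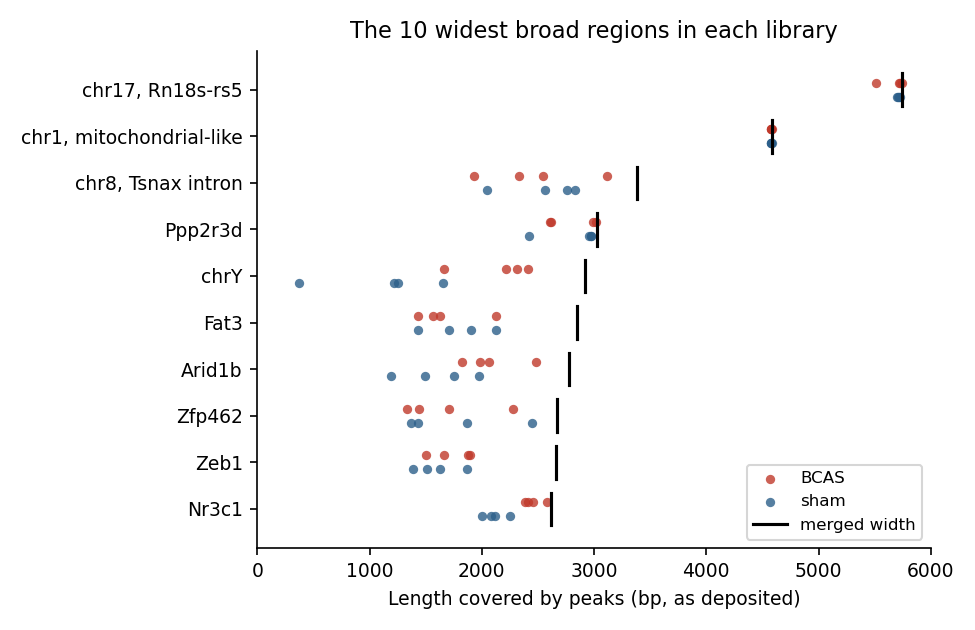
Length covered by peaks in each library (x axis, bp, as deposited) for the 10 widest broad regions, widest at the top; each point is 1 library, BCAS above sham, and the black bar is the merged width. The points of the Rn18s-rs5 and mitochondrial-like regions lie on or near the bar, between 5509 and 5741 bp and between 4573 and 4585 bp, whereas those of the chromosome Y region spread between 367 and 2409 bp.

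The other regions without a protein-coding TSS inside had varied neighbours. The region chr19:5793105-5795309 lies 380 bp beyond the end of Malat1, an abundant nuclear long noncoding RNA. The region chr1:165641283-165643360 contains 2 tRNA genes, n-TPagg2 and n-TPcgg2. Others cover the starts of the noncoding RNAs A330102I10Rik, in the neighbourhood of Sox4, and Dleu2, the host of microRNAs. A region on chromosome Y (chrY:90741907-90744828, 2922 bp) was covered in all 8 libraries over only 303 bp. Within 3 kb of a protein-coding TSS lay the middle of 6 of the 20 regions without a TSS inside, at Zfp827, Fjx1, Bcor, Lrrc4, Sstr1 and Grb10. The TSS positions used were those of GENCODE. In RefSeq the start of Fjx1 lies inside its region, and a predicted coding gene starts inside the chromosome Y region. Bcor is a transcriptional corepressor, Lrrc4 a synaptic adhesion protein and Sstr1 a somatostatin receptor.

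At the 76 promoters 82 protein-coding genes had a TSS inside a broad region, which is 0.375% of 21851 protein-coding genes, and 6 of the promoters served 2 or more genes. The genes were long. Their median length was 84.6 kb, against 26.3 kb for the 12692 genes whose TSS lay only in a narrower region open in all 8 libraries, and 36 of the 82 (43.9%) exceeded 100 kb, against 15.7%. Gene length was not used by the rule, but since the genes are a fixed set it is given with no test. More than 1 annotated TSS position lay in 43 of the 76 broad promoters (56.6%), against 48.1% of the narrower ones. In those with several positions the outermost were a median of 331 bp apart in broad promoters and 97 bp apart in narrower ones. A wider region has room for more positions and a larger distance, so both measures depend partly on the width that the rule used.

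Genes with a broad promoter are described by role in groups that were made after the genes had been seen. Among regulators of transcription and chromatin the widest promoter was that of Arid1b (chr17:4993964-4996742, 2779 bp), a subunit of SWI/SNF remodelling complexes. Zfp462 (2671 bp) and Zeb1 (2659 bp) encode zinc-finger proteins, and Nr3c1 (2612 bp) the glucocorticoid receptor. Others were Sp3 (2372 bp), which binds GC boxes, Ncoa2 (2365 bp), a nuclear receptor coactivator, Setd7 (2335 bp), a lysine methyltransferase, Nipbl (2121 bp), the loader of cohesin, Nsd1 (2086 bp), a histone H3 methyltransferase, and Hcfc1 (2005 bp), a cofactor of chromatin enzymes. Covered length at Nr3c1 was 2458, 2582, 2413 and 2382 bp in BCAS libraries and 2083, 2255, 2115 and 2001 bp in sham libraries as deposited. Each BCAS value exceeded each sham value there, but after scaling to the total covered length of each library the groups overlapped. Scaling also raised the SD, from 87.9 to 310.1 bp in BCAS libraries and from 105.8 to 275.4 bp in sham libraries. Whether the deposited difference at Nr3c1 follows from the library totals was not tested.

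Genes of excitability and synapses formed another group. They included the potassium channel genes Kcnn2 (2207 bp), Kcna1 (2167 bp) and Kcnv1 (2111 bp), the muscarinic receptor gene Chrm3 (2135 bp), and Cadps (2098 bp), Rims2 (2038 bp) and Ppfia2 (2112 bp), whose products act in vesicle release at the presynaptic active zone. Kcna1 was covered over 1992, 1539, 1840 and 1408 bp in BCAS libraries and 1676, 1605, 1840 and 1435 bp in sham libraries. Chrm3 was among the least even promoters, with 1004, 1198, 809 and 1510 bp in BCAS libraries and 1284, 1299, 1898 and 1191 bp in sham libraries. Signalling and adhesion genes included Fat3 (2844 bp), an atypical cadherin, Nrg3 (2378 bp), a ligand of ERBB4, Mdga2 (2376 bp), a regulator of synaptic adhesion, and Pik3r1 (2043 bp), a regulatory subunit of PI3-kinase. The widest promoter of any coding gene was that of Ppp2r3d (chr9:124422817-124425846, 3030 bp), a regulatory subunit of protein phosphatase 2A. It was covered over 3015, 2605, 2988 and 2612 bp in BCAS libraries and 2974, 2973, 2959 and 2419 bp in sham libraries.

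In most promoters the open stretch reached further into the gene than upstream of it. In the 70 broad regions in which 1 protein-coding gene starts, a median of 1436 bp lay downstream of the outermost TSS and 757 bp upstream, and 54 of the 70 were longer downstream. Where a promoter has several TSS positions, this split depends on which of them is taken. Peaks covered the TSS itself in 95.4 ± 2.14% of these promoters in BCAS libraries and 92.9 ± 1.65% in sham libraries (SD, n = 4 each). At 1000 bp downstream 55.0 ± 5.02% were covered in BCAS libraries and 53.9 ± 6.21% in sham libraries. At 1000 bp upstream it was 27.9 ± 2.47% in BCAS libraries and 25.0 ± 2.47% in sham libraries.

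**Figure D3:**
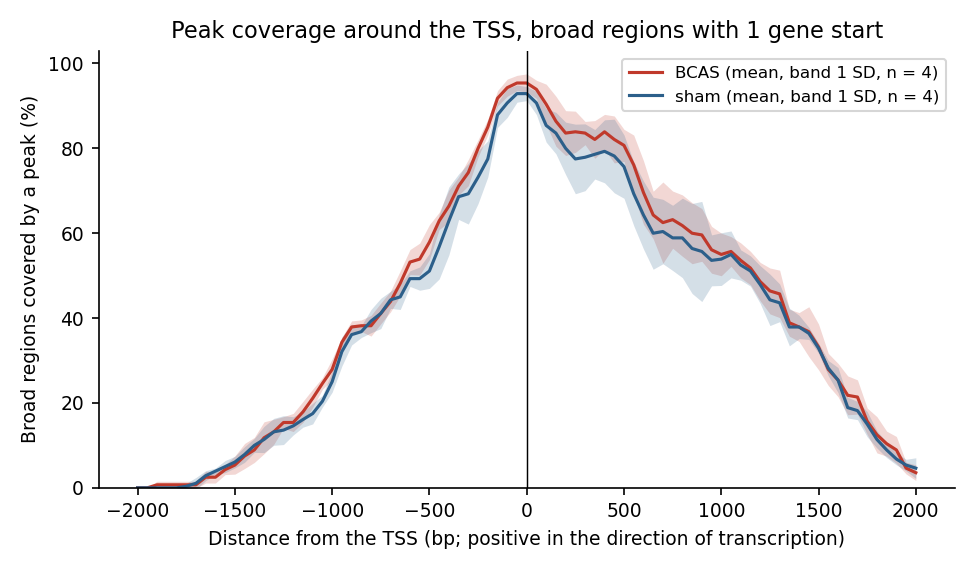
Share of the 70 broad regions with 1 gene start that were covered by a peak (y axis, %) at each distance from the outermost TSS (x axis, bp, positive in the direction of transcription); lines are means of 4 libraries per group and bands 1 SD. Coverage peaks at the TSS (95.4% in BCAS, 92.9% in sham) and falls more slowly downstream than upstream in both groups.

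Motifs at the summits were compared between broad and narrower regions, since sequence was not part of the rule. In each library the DNA within 100 bp of the region's highest summit was searched on both strands for 17 short motifs. The top summit lay within 1 kb of a protein-coding TSS in 77.0% of the broad regions on average over the 8 libraries, against 18.6% of the narrower regions. The GC box bound by SP1 and KLF factors (GGGCGG) was present in 50.9% of broad regions and 17.9% of narrower ones. The CTCF core (AGGGGGC) was present in 15.9% of broad and 6.12% of narrower regions, and the CCAAT box of NFY (CCAATCA) in 7.55% and 3.38%. By contrast, the AP-1 site (TGANTCA) was present in 1.17% of broad and 15% of narrower regions, the NEUROD1 E-box (CAGATGG) in 2.08% and 9.58%, and the RUNX site (TGTGGTT) in 1.17% and 3.85%. These are the 3 largest differences in each direction, and each had the same sign in 8 of 8 libraries (exact two-sided sign-flip test over 8 libraries, p = 0.00781, the smallest it can give, adjusted p = 0.0108 over 18 values). The p-values measure the spread between libraries only, since all libraries share the 96 regions. The 95% interval from counting regions was 0.225 to 5.88% for the RUNX site in broad regions, which includes the narrower share. For the other motifs named here this interval excluded the narrower share.

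Among promoters alone each of these 6 motif differences was smaller. Among regions whose middle lay within 3 kb of a protein-coding TSS, 82 broad and 15690 narrower, the GC box was present in 56.9% and 55% (exact adjusted p = 0.202) and the CCAAT box in 8.23% and 8.21% (exact adjusted p = 0.992). The CTCF core was more frequent in broad promoters, with 18.6% against 12.8%, and the AP-1 site less frequent, with 1.22% against 4.59% (exact adjusted p = 0.0117 for both, 8 of 8 libraries). All p-values among promoters measure the spread between libraries, which share the 82 broad promoters. No interval from counting regions was made for promoters, so these p-values cannot tell how far the differences rest on a few regions. For other motifs the sign of the difference was not the same over all regions and among promoters. Over all regions the NRF1 motif (GCGCNTGCG) was present in 3.52% of broad and 2.47% of narrower regions (exact adjusted p = 0.0187, higher in 7 of 8 libraries), and the ETS site with a CpG (CCGGAAG) in 7.16% and 3.66% (exact adjusted p = 0.0108, 8 of 8 libraries). The 95% intervals from counting broad regions were 1.27 to 9.34% for NRF1 and 3.49 to 14.1% for ETS. Both included the narrower share. Among promoters alone the NRF1 motif was less frequent in broad promoters, with 2.90% against 9.37%, as was the ETS site, with 8.38% against 12.4% (exact adjusted p = 0.0117 for both). The CREB site (TGACGTCA) differed likewise. It was present in 1.95% of broad and 0.84% of narrower regions over all regions (exact adjusted p = 0.0108). Among promoters it was present in 2.13% and 2.63% (exact adjusted p = 0.0117). The interval from counting all broad regions, 0.518 to 7.09%, included the narrower share. At the top summit 1 broad region had the CREB site in all 8 libraries and 3 in any library, so its difference rests on very few regions. The circadian E-box (CACGTG) was present in 6.38% of broad and 3.93% of narrower regions (exact adjusted p = 0.0187), and among promoters in 5.34% and 6.86%, which did not pass the test (exact adjusted p = 0.0603). Its interval from counting all broad regions, 2.98 to 13.1%, included the narrower share. A match describes the letters only.

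Windows of 200 bp around the summits of 4 broad promoters are printed below, plus strand of GRCm38 with GC boxes on either strand in capitals. They are shown because the values of these promoters in BCAS and sham are given below. The windows are chr17:4994198-4994397 (Arid1b), chr12:8500063-8500262 (Rhob), chr16:44138946-44139145 (Atp6v1a/Naa50) and chr17:78199904-78200103 (Crim1).
Arid1b: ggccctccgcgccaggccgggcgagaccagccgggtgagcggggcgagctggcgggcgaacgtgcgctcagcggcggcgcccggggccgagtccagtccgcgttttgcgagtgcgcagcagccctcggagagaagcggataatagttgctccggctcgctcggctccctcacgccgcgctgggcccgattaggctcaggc
Rhob: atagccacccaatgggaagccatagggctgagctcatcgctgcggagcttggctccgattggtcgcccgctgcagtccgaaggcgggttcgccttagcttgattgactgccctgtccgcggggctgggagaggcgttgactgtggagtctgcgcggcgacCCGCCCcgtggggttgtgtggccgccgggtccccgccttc
Atp6v1a/Naa50: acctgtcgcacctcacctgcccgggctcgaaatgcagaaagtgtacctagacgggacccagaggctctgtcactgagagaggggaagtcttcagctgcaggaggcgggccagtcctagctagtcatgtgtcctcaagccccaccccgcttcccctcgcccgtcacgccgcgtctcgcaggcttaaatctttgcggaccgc
Crim1: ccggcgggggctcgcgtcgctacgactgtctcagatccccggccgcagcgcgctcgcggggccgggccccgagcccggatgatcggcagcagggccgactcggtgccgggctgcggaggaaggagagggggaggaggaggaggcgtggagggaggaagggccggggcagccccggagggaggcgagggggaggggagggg
The Rhob window held 1 GC box at a GC content of 67.5%, and the top summits of all 8 libraries fell within 21 bp of each other. At Arid1b all 8 summits fell within 50 bp. The windows of Arid1b, Crim1 and Atp6v1a/Naa50 held none, although the Crim1 window had a GC content of 78.0%. At Atp6v1a/Naa50, a promoter shared by both genes, the summits of the 8 libraries lay up to 768 bp apart, and 5 of them fell inside the window.

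Many members reached their width only when libraries were merged. In each library 1 to 4 peaks made up a broad region, with a mean of 1.87. Only 3 members were a single peak in every library, and 54 of the 96 had no single peak of 2000 bp in any library. The stretch covered by all 8 libraries at the same time made up a median of 52.7% of the merged width, between 6.07 and 99.7%. Of the 192 outer edges, BCAS libraries set 122 and sham libraries 82, edges set by libraries of both groups being counted in both. BCAS library 1, which had the most peaks, set 51 edges, and sham library 4 set 9. When a library was left out of the merging, between 79 and 92 of the 96 still met the rule on the other 7. Bases covered in every BCAS library and in no sham library added up to 758 bp in 10 members, mainly at 4930404N11Rik (284 bp), Tiparp (223 bp) and Atp6v1a/Naa50 (139 bp). The reverse added up to 267 bp in 3 members, Fat3 (150 bp), Crim1 (88 bp) and Slc16a7 (29 bp).

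Whether carotid stenosis altered the broad regions was addressed by comparing the groups, which the rule did not use. Over all members, peaks covered 85.9, 78.3, 78.6 and 76.0% of the summed width in BCAS libraries 1 to 4, against 70.8, 77.4, 81.4 and 72.6% in sham libraries 1 to 4. The means were 79.7 ± 4.31% in BCAS libraries and 75.6 ± 4.81% in sham libraries (SD, n = 4 each), and the groups overlapped (p = 0.229 by a two-sided exact permutation test; adjusted p = 0.722 over 23 values). The order of the libraries followed that of their peak numbers in part, with the most peaks in BCAS library 1 and sham library 3 and the fewest in sham libraries 1 and 4. The study's quality table gives the GC content of each library's reads, and the libraries were divided here into a high and a low class by it. Within those of high read GC, which are BCAS 1 and sham 1 to 3, the difference was 9.38 percentage points, and within those of low read GC, BCAS 2 to 4 and sham 4, it was 5.02, each class holding 1 library of 1 group. A broad region consisted of 1.82 ± 0.0698 peaks in BCAS libraries and 1.92 ± 0.158 in sham libraries (exact p = 0.314). Its longest peak averaged 1464 ± 82.1 bp in BCAS libraries and 1336 ± 152.4 bp in sham libraries (exact p = 0.2). Broad regions held 0.325 ± 0.0268% of all covered DNA in BCAS libraries and 0.328 ± 0.0303% in sham libraries (exact p = 0.914).

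**Figure D4:**
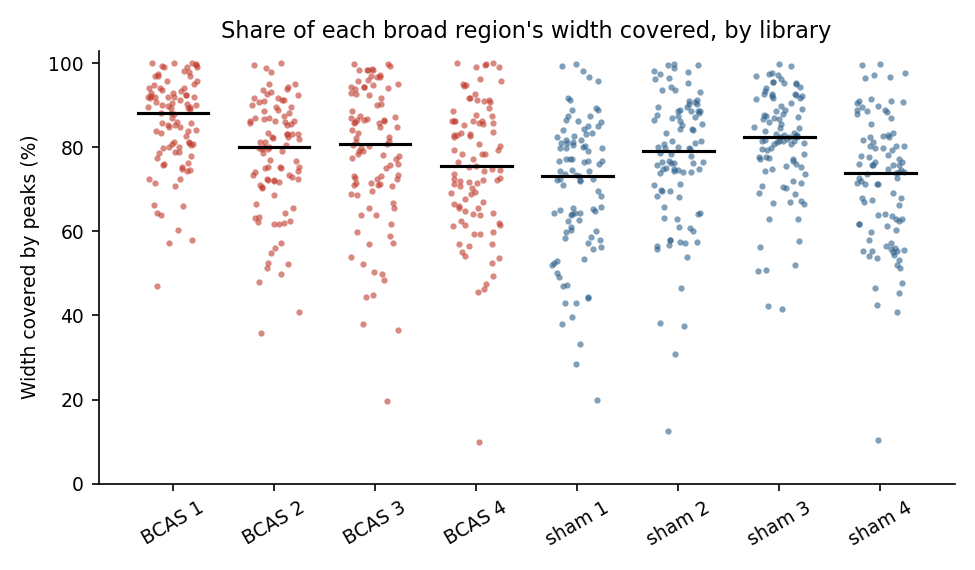
Share of each broad region's merged width that was covered by peaks (y axis, %), for each of the 4 BCAS and 4 sham libraries; each point is 1 of the 96 regions and the bar is the library's median. The libraries of both groups overlap, and the highest bar is that of BCAS 1, whose peaks covered 85.9% of the summed width.

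Of the 23 values, 2 had an exact p at the smallest value that 4 against 4 libraries can give (p = 0.0286), and neither passed correction. The median percentile of the top summit among all peaks of its library was 68.7, 67.9, 68.4 and 65.2 in BCAS libraries, against 58.8, 64.7, 63.5 and 64.0 in sham libraries (adjusted p = 0.329, exact permutation test). All 4 BCAS values lay above all 4 sham values. The CCAAT box at the top summit was present in 6.77 ± 1.04% of broad regions in BCAS libraries and 8.33 ± 0% in sham libraries (SD, n = 4 each), where 1.04% is 1 region (exact adjusted p = 0.329).

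Taken one by one, none of the 96 broad regions passed a test between the groups. Covered length, scaled to the library's total and tested as log2(bp + 200) with limma over 98842 merged regions, passed an adjusted p of 0.05 in 0 of the 96 broad regions in either direction. Among all tested regions 0.127% were called higher and 0.0121% lower in BCAS. At an unadjusted p under 0.05, 5 broad regions were higher and 2 lower in BCAS, against 4.16% and 4.72% of all tested regions. The groups did not overlap after scaling in 0 of the 96, against 2.67% of all tested regions with BCAS above sham and 3.37% with BCAS below. Scaling multiplies each library by 1 factor, so it adds spread where covered length does not follow the library's total. At the Rn18s-rs5 locus the sham SD was 10.5 bp as deposited and 903.6 bp after scaling. The count of 0 therefore depends on the scaling and gives no evidence that the groups are alike in these regions. The median log2 fold change of the broad regions was -0.03, against -0.05 over all regions tested. The 95% interval of the fold change lay within 1.5-fold (0.58 on the log2 scale) in either direction in 85 of the 96 and within 1 log2 unit in 93.

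Summit enrichment, tested with limma on quantile-normalized log2 values over the 71712 regions open in all 8 libraries, also passed an adjusted p of 0.05 in 0 broad regions. Among all tested regions 1.44% were called higher and 0.577% lower in BCAS. A count of 0 of 96 allows a share of up to 3.12%, so that the broad regions are too few to be set against that background. With the limit at 1500 bp, 0 of 1086 regions were called, which allows a share of up to 0.276%, while 2.14% of regions of 500 to under 1000 bp and 0.504% of those of 1000 to under 1500 bp were called. The widest region called was 1426 bp for summit enrichment and 1307 bp for covered length. The median standard error of the log2 fold change was 0.12 for regions of 1500 bp or more and 0.14 for those of 500 to under 1000 bp. At an unadjusted p under 0.05, 3 broad regions were higher and 0 lower in BCAS, against 7.61% of all tested regions in each direction. The groups did not overlap in 3 members, all with BCAS above sham, against 4.8% of all tested regions with BCAS above and 3.72% with BCAS below. The median log2 fold change was 0.04, against a median of 0.00 over all, and it was positive in 67 of the 96, against 49.8% of all tested regions.

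**Figure D5:**
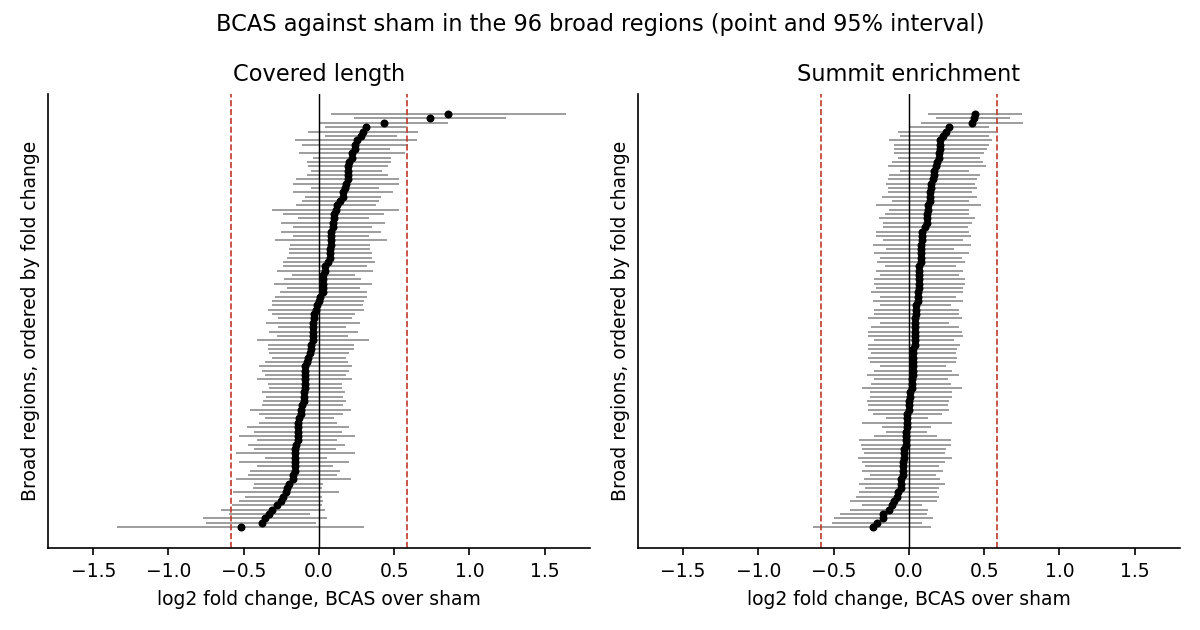
log2 fold change of BCAS over sham (x axis) with its 95% interval for covered length (left) and summit enrichment (right) in the 96 broad regions, ordered by fold change; dashed lines mark a 1.5-fold change in either direction. The intervals lie within these lines in 85 regions for covered length and in 92 for summit enrichment, and no region passed an adjusted p of 0.05.

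For summit enrichment, the fold at Chrd (chr16:20731642-20733769), which encodes chordin, an inhibitor of bone morphogenetic proteins, was after normalization 7.20, 7.81, 8.62 and 8.24 in BCAS libraries, against 4.59, 6.5, 6.28 and 6.24 in sham libraries (log2 fold change 0.44, 95% interval 0.13 to 0.75, limma adjusted p = 0.143). Sham library 1 stood below the other 3. A region on chromosome 18 whose nearest coding TSS is that of Zfp608, 558630 bp away, had 6.20, 7.41, 8.37 and 8.67 in BCAS libraries and 4.52, 7.05, 5.83 and 5.67 in sham libraries (log2 fold change 0.42, limma adjusted p = 0.216), with the groups overlapping. In the other direction the smallest p-values of regions named by gene belonged to Pcsk1, a prohormone convertase, the region near Zfp827, and Tiparp, an ADP-ribosyltransferase. Their log2 fold changes were -0.21, -0.17 and -0.11 (limma adjusted p = 0.537, 0.609 and 0.64).

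For covered length, Arid1b had the smallest p in the direction of BCAS once genes known only by a clone or predicted name were left out. It was covered over 2479, 1821, 1987 and 2068 bp in BCAS libraries, against 1191, 1977, 1750 and 1493 bp in sham libraries, with overlap (log2 fold change 0.28, 95% interval 0.04 to 0.52, limma adjusted p = 0.506). The promoter shared by Atp6v1a, a subunit of the vacuolar proton pump, and Naa50, an acetyltransferase, was covered over 1859, 1795, 2050 and 1721 bp in BCAS libraries, against 1355, 1315, 1471 and 1334 bp in sham libraries. These deposited lengths did not overlap, but the scaled ones did (log2 fold change 0.31, 95% interval 0.04 to 0.58, limma adjusted p = 0.515). Scaling raised the SD from 140.9 to 266.9 bp in BCAS libraries and from 70.1 to 184 bp in sham libraries. Without scaling this promoter was the 1 broad region called higher in BCAS (log2 fold change 0.39, limma adjusted p = 0.0372). Rhob, a small GTPase, was covered over 2238, 1635, 1714 and 1442 bp in BCAS libraries and 1186, 1261, 1596 and 1392 bp in sham libraries (log2 fold change 0.24, limma adjusted p = 0.541).

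In the opposite direction Crim1, a transmembrane protein that binds bone morphogenetic proteins, was covered over 1924, 1572, 1285 and 1294 bp in BCAS libraries, against 1939, 1632, 1960 and 1744 bp in sham libraries (log2 fold change -0.33, 95% interval -0.60 to -0.06, limma adjusted p = 0.485). The region beyond Malat1 had 1599, 1361, 991 and 1465 bp in BCAS libraries and 1930, 1390, 1821 and 1673 bp in sham libraries (log2 fold change -0.38, limma adjusted p = 0.543). Tmtc1, an endoplasmic reticulum mannosyltransferase, had 1828, 1494, 1126 and 1598 bp in BCAS libraries and 1585, 1741, 1780 and 1883 bp in sham libraries (log2 fold change -0.28, limma adjusted p = 0.58). None of these 3 passed the test, and each had overlapping groups.

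The 2 largest fold changes of covered length belonged to members covered unevenly. The promoter of 4930404N11Rik (chr10:81364539-81366548) had 1330, 822, 1002 and 955 bp in BCAS libraries and 401, 619, 1023 and 208 bp in sham libraries (log2 fold change 0.74, 95% interval 0.23 to 1.24, limma adjusted p = 0.377, the smallest of the 96). Its coefficient of variation was 46.0%. The chromosome Y region had 2217, 2315, 1665 and 2409 bp in BCAS libraries and 1255, 367, 1217 and 1650 bp in sham libraries (log2 fold change 0.86, 95% interval 0.08 to 1.64, limma adjusted p = 0.526), and 47.9% of its 36-mers occur more than once in the genome. The deposited lengths of BCAS lay above those of sham there, whereas the scaled ones overlapped. Scaling raised the SD there from 333.7 to 433.6 bp in BCAS libraries and from 540.2 to 680.7 bp in sham libraries. These 2 members were named after their values had been seen.

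A few genes of the fixed lists had a broad region. Of 40 cortical transcription factors, Nfib and Zfpm2 did (5.00%), and of 76 cytosolic ribosomal protein genes Rpl7 (1.32%), against 0.375% of all protein-coding genes. None of the listed interneuron, activity-regulated, circadian clock, astrocyte, oligodendrocyte lineage, microglia, endothelial and mural, HIF target or housekeeping genes had one. These lists hold 17 to 31 annotated genes each, too few for a count of 0 to be set against the overall share of 0.375%. All 28 housekeeping genes and all 18 clock genes had a region open in all 8 libraries at a TSS. Nfib, a nuclear factor I gene of cortical development and glia, was covered over 1830, 1694, 1628 and 1382 bp in BCAS libraries and 1033, 1913, 1093 and 1164 bp in sham libraries (log2 fold change 0.24, limma adjusted p = 0.666). The promoter shared by Rpl7 and Rdh10 was among the most even, with 1901, 1898, 2021 and 1931 bp in BCAS libraries and 1851, 1846, 1792 and 1839 bp in sham libraries. Deposited lengths did not overlap there, and the log2 fold change after scaling was -0.01 (limma adjusted p = 0.990). Scaling raised the SD from 57.5 to 273.3 bp in BCAS libraries and from 27.1 to 310.8 bp in sham libraries.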

How the data were processed

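ATAC-seq libraries of 4 BCAS and 4 sham mice were analysed from the peak list of each library. According to the methods and the submitters' processing notes, reads were trimmed with Trim Galore, aligned to mm10 with Bowtie2 2.3.4.3, handled with SAMtools 1.9, and peaks were called per library with MACS2, with options not stated there. The deposited lists hold peak positions in bp, a whole-number score, the fold (a ratio to local background) at each summit, and -log10 values of p and q, all computed by the authors. How reads that align to several places were treated is likewise not stated.

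The 861 peaks on other sequences were left out. Genes came from GENCODE vM21 (basic) and RefSeq, sequence from GRCm38, and python 3.11.15, numpy 2.4.6, pandas 2.3.3, scipy 1.17.1, matplotlib 3.10.9, R 4.3.3 and limma 3.58.1 were used. Covered length was the sum of peak lengths in a region, scaled to the mean library total; regions averaging 200 bp or more entered limma with a variance trend, on log2(bp + 200), and summit enrichment over regions open in all 8 libraries on quantile-normalized log2 values, both with Benjamini-Hochberg adjustment. A 36-mer was repeated when it occurred more than once in the genome on either strand. Values per library were compared with exact permutation tests over 70 labelings or exact sign-flip tests over 8 libraries. Named regions were the 10 widest, those with the 3 smallest p in each direction, and those of the fixed lists, predicted genes left out; some results that this rule names are not reported here. The members, lists and tests were chosen with earlier results of these data known. Scripts were tested on simulated data. p-values measure the spread between mice, 1 library each; Wilson intervals, and limits for 0 calls (taken as 3 counts), reflect counting error alone. Alternatives were other scalings, no minimum length, a pseudocount of 50 or of 1000 bp, a -log10 q of 5 and lists of equal length. Further ones were widths of 1500 and 3000 bp, a motif window of 50 bp, promoters only and a TSS within 3 kb. The replicate number as a block and leaving out each library were also tried. So was a read GC class, made here from the study's quality table, as a covariate. Leaving out the 5 members with repeated sequence was added after seeing the data.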

Additional observations from a re-analysis of the deposited data

Results flagged for a closer look

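In groups of 4 libraries, a library was singled out when its distance to the nearest of the others took up more of the group's range than Dixon's 95% critical value. This was applied to 52 groups of values of the report, of which chance alone would single out about 2.6 at 1 in 20, and 5 were found. BCAS library 1 had 0.286% of its covered DNA in broad regions, against 0.333 to 0.342% in the other 3 BCAS libraries. At the mitochondrial-like block of chromosome 1, BCAS library 2 was covered over 4585 bp, against 4578 to 4579 bp in the others. At the Rn18s-rs5 locus, BCAS library 3 was covered over 5509 bp, against 5715 to 5741 bp. At Ppp2r3d, sham library 4 was covered over 2419 bp, against 2959 to 2974 bp in the other sham libraries. The normalized summit enrichment of Chrd was 4.59 in sham library 1, against 6.24 to 6.5 in the other sham libraries.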

How the results depend on the processing

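No broad region was called in either direction under any alternative for covered length or summit enrichment, with 2 exceptions: 1 was called higher in covered length without scaling (Atp6v1a/Naa50, log2 fold change 0.39) and 1 higher in summit enrichment without sham replicate 4, so that leaving out libraries gave 0 to 1. The replicate number as a block gave 0 calls, with adjusted p = 0.585 for Arid1b by limma; libraries of the same number did not vary together (correlations -0.0323, -0.0185, -0.0366 and 0.0804), so the numbers do not pair mice. Adjusted for read GC class, the median log2 fold change of covered length was -0.13 in broad regions and -0.12 in all tested. Near Zfp827 the mean over the peaks turned the summit difference to 0.06.

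For differences of BCAS minus sham, the median percentile of the top summit was 4.82 and no longer reached an unadjusted exact permutation p under 0.05 with lists of equal length (2.96), a -log10 q of 5 (4.74) or members of 3000 bp (2.18). Without single libraries it was 3.52 to 5.6, where 3 against 4 libraries cannot reach that threshold. The share of all covered DNA turned to 0.007 with lists of equal length and 0.00418 at a -log10 q of 5, and spanned -0.0138 to 0.0105 percentage points without single libraries, with BCAS replicate 1, sham replicate 1 and sham replicate 4 turning its sign. With the 4 members of 3000 bp the share of all peaks turned to 0.000114, the longest peak to -151.8 bp, peaks per region to 0.125 and the share of width covered to -0.788.

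Of 17 motifs, 7 were more and 8 less frequent in broad regions by the test over libraries. More frequent were 4 within 50 bp, 1 among promoters only and 0 for members of 3000 bp. Broad minus narrower turned to -6.13 for CTCF, -3.38 for NFY and -8.56 for the GC box with members of 3000 bp, for which 3 of the 4 are repeats, ribosomal or mitochondrial-like DNA. Reads per library, which the study's quality table lists, were not set against peak width here.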
